A study of Mus musculus with 8 samples.

Results

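Adherens junctions are the belt of cell-cell contacts that ties the actin cytoskeletons of neighbouring epithelial cells together. Nectins are immunoglobulin-like adhesion proteins that make early contacts and bind actin through afadin. Classical cadherins bind each other in the presence of calcium. Their tails carry a delta-family catenin and beta-catenin, the second of which recruits alpha-catenin and through it actin. In the epidermis these junctions hold keratinocytes together, and they are loosened and rebuilt as a wound margin closes. The 10 genes described here are NECTIN1, NECTIN2, NECTIN3 and NECTIN4, afadin (AFDN), the epithelial cadherins CDH1 and CDH3, and the catenins CTNNA1, CTNNB1 and CTNND1. They were taken by symbol from the 58825 genes of the deposited expression table, and all 10 had a row.

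The study compared rFGF4 treatment of skin wounds with PBS, the buffer control; rFGF4 is recombinant fibroblast growth factor 4. RNA-seq values were given for 4 rFGF4 libraries and 4 PBS libraries. Per the labels, both groups were skin from the 2 mm round the wounds of C57BL/6 mice aged 6 to 8 weeks, taken at 6 days. The labels name no genotype other than the strain, and they do not say whether animals were pooled or whether each library came from its own animal. The p-values below therefore measure the spread between libraries, which may be technical.

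The table does not match that source. All 58304 gene identifiers used here were human and 0 were mouse, and the columns were named C and FGF4 with replicate numbers. Below, "rFGF4 libraries" and "PBS libraries" mean the columns with those names, and no value is attributed to mouse wounds. The libraries held 62044121 to 73680756 counts. All 9 basal keratinocyte markers (KRT5, KRT14, KRT15, TP63, ITGA6, ITGB4, COL17A1, LAMB3 and DST) had a mean FPKM of at least 1, where FPKM is fragments per kilobase of gene, scaled to library size. All 5 simple epithelial markers (KRT7, KRT8, KRT18, KRT19 and EPCAM) did so as well. Of the other lists, 5 of 10 differentiated keratinocyte markers, 2 of 7 endothelial markers (CDH5 and EGFL7) and 1 of 8 leukocyte markers (CD68) reached that level. It was 0 of 8 for fibroblasts, 0 of 5 for melanocytes, 0 of 6 for skeletal muscle, 0 of 4 for adipocytes and 0 of 4 for erythrocytes. Listed at 0 in every library were LOR and TGM3, DPT, TYR, MYH1 and MYH2, and ADIPOQ, LEP and CIDEC. The mean FPKM was 0.204 for COL1A1, 0.482 for PECAM1 and 0.00319 for PTPRC, defining markers of fibroblasts, endothelium and leukocytes. The data are bulk values, so fewer cells of a type and less RNA per cell cannot be told apart.

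Of these junction genes, NECTIN4 fell in the rFGF4 libraries and no other passed the test. Its level was 62.9% lower, while the other 8 tested genes had estimates between −0.25 and −0.04 on the log2 scale. Genes whose FPKM averaged 1 or more were tested with edgeR's quasi-likelihood test on the deposited counts, and a call is a Benjamini-Hochberg adjusted p under 0.05 over all 11536 tested genes. By that rule 1 of 9 tested members was called lower, against 4.54% of all tested genes, and 0 were called higher, against 5.49% of all tested genes. At an unadjusted p under 0.05, 3 were lower and 0 higher, against 11.6% and 13.5% of all tested genes. DESeq2 called 2 lower and 0 higher, against 7.35% and 8.53% of the genes it gave an adjusted p. On log2(FPKM + 1), limma also called 2 lower and 0 higher, against 5.05% and 4.86% of all tested genes, and on log2(FPKM + 0.1) it called 1 lower and 0 higher. Counts by limma below are on log2(FPKM + 1). NECTIN3 was below the filter. All 9 estimates were below 0, with a median log2 fold change of −0.12, where the median of all tested genes was 0.00 and 49.7% of them were below 0. The list was chosen with earlier results of these data known, so this count is a description. Every fold change is rFGF4 over PBS.

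**Figure D1:**
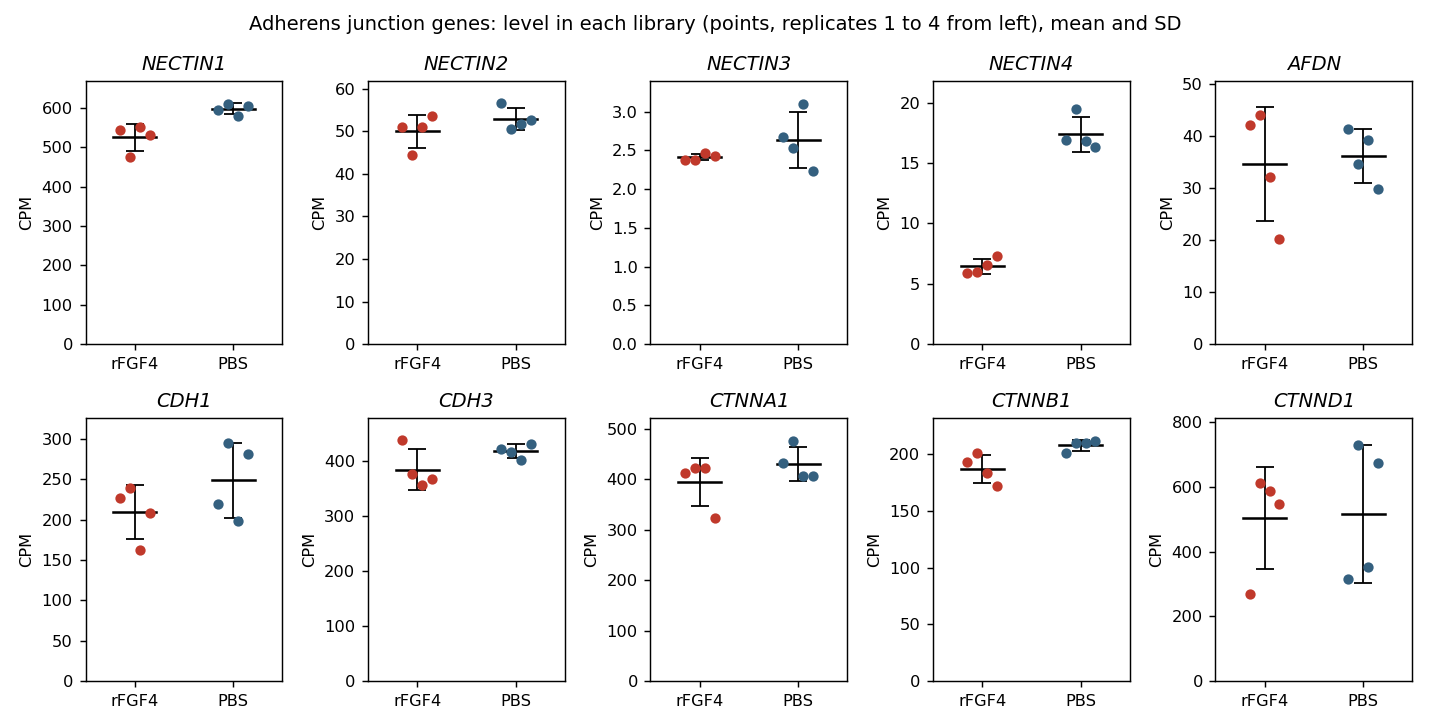
Level of each gene in CPM (counts scaled to library size, y axis from 0) in the 4 rFGF4 and 4 PBS libraries, with points in replicate order and bars for mean and SD. NECTIN4 lies at 5.92 to 7.29 CPM in rFGF4 libraries and 16.3 to 19.5 CPM in PBS libraries, and CTNND1 is widely spread in both groups.

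NECTIN4 is the nectin of embryonic and some adult epithelia, and the table places it on chromosome 1 from 161070998 to 161089558, minus strand. Coordinates are printed as the table gives them, since the sources used here do not name a genome build. In CPM, which is counts scaled to the total of the tested genes with TMM factors, NECTIN4 stood at 5.92, 6.02, 6.56 and 7.29 in rFGF4 replicates 1 to 4, against 16.9, 19.5, 16.8 and 16.3 in PBS replicates 1 to 4. The groups were far apart, and every rFGF4 library lay below every PBS library. Such a separation was seen in 2 of the 9 tested members, both lower, and in the background for 9.26% of all tested genes lower and 10.1% higher. The mean was 6.44 ± 0.627 CPM in rFGF4 libraries and 17.4 ± 1.45 CPM in PBS libraries (SD, n = 4 each). Its log2 fold change was −1.43 (SE 0.10, 95% interval −1.67 to −1.20, edgeR adjusted p = 0.000279). The change rests on 430 to 501 deposited counts per rFGF4 library and 1039 to 1250 per PBS library. These counts may be worth about 4 per fragment, so fewer fragments may lie behind them. With counts divided by 4 the edgeR adjusted p was 0.000264. The gene overlapping NECTIN4 in the table did not exceed 0.0752 FPKM in any library.

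NECTIN1, a broadly expressed epithelial nectin and an entry receptor of herpes simplex virus, was the most abundant of the 4. It stood at 545, 476, 551 and 532 CPM in rFGF4 replicates 1 to 4, against 595, 611, 579 and 606 CPM in PBS replicates 1 to 4. The groups did not overlap, with rFGF4 replicate 2 the lowest library. Relative to PBS the log2 fold change was −0.18 (SE 0.06, 95% interval −0.32 to −0.05), a difference of 12.0% with an edgeR adjusted p of 0.089, which missed the threshold. With DESeq2 the adjusted p was 0.0391 and with limma on log2(FPKM + 1) it was 0.0497. With library totals in place of TMM factors, the edgeR adjusted p was 0.0375. The small difference in NECTIN1 is thus called or not called depending on the method.

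NECTIN2, a nectin also found outside epithelia, stood at 51.0, 44.4, 50.9 and 53.5 CPM in rFGF4 replicates 1 to 4, against 56.6, 50.6, 51.7 and 52.6 CPM in PBS replicates 1 to 4. The groups overlapped, and the log2 fold change was −0.08 (SE 0.07, 95% interval −0.25 to 0.08, edgeR adjusted p = 0.538), and it was −0.03 without rFGF4 replicate 2. NECTIN3, which pairs with NECTIN1 across contacts between unlike cells, was scarce at 2.38, 2.38, 2.47 and 2.43 CPM in rFGF4 libraries and 2.67, 2.53, 3.10 and 2.24 CPM in PBS libraries. Its values overlapped too, and with the filter lowered to a mean FPKM of 0.1 its log2 fold change was −0.12 (SE 0.14, edgeR adjusted p = 0.720).

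The nectin mixture therefore differed between the groups mainly in its NECTIN4 part. As a share of the summed FPKM of the 4 nectins, NECTIN4 made up 2.00%, 2.32%, 2.19% and 2.48% in rFGF4 replicates 1 to 4, against 5.07%, 5.77%, 5.22% and 4.87% in PBS replicates 1 to 4. NECTIN1 made up 80.3% to 81.7% in rFGF4 libraries and 78.9% to 80.3% in PBS libraries, so it dominated in both. NECTIN2 supplied 15.7% to 16.9% in rFGF4 libraries and 13.8% to 15.7% in PBS libraries. The summed nectin FPKM was 63.6 to 71.1 in rFGF4 libraries and 79.2 to 81.3 in PBS libraries, without overlap. Most of that gap lay in NECTIN1, which edgeR did not call. NECTIN1 averaged 55.3 FPKM in rFGF4 libraries and 64.0 FPKM in PBS libraries, against 1.53 and 4.2 FPKM for NECTIN4. NECTIN1 FPKM exceeded NECTIN4 FPKM 32.3 to 40.8 times in rFGF4 libraries and 13.9 to 16.5 times in PBS libraries. No test is given for these composites, since they combine chosen genes.

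**Figure D2:**
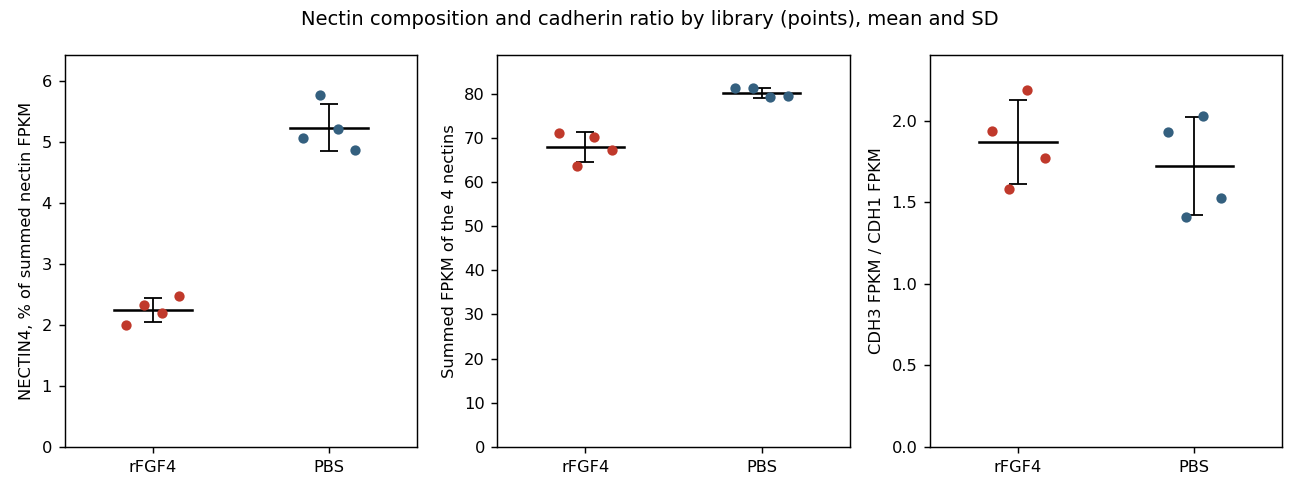
Left, NECTIN4 as a percentage of the summed FPKM of the 4 nectins; middle, that sum; right, the ratio of CDH3 to CDH1 FPKM; points are libraries, bars are mean and SD, and y axes start at 0. NECTIN4 makes up 2.00% to 2.48% in rFGF4 libraries and 4.87% to 5.77% in PBS libraries, and the cadherin ratio overlaps.

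Afadin, the scaffold that links nectins to actin, was low and uneven. AFDN stood at 42.1, 43.9, 32.1 and 20.1 CPM in rFGF4 replicates 1 to 4, against 41.3, 34.5, 39.1 and 29.7 CPM in PBS replicates 1 to 4. The rFGF4 libraries spanned the whole PBS range, with replicate 4 lowest. The log2 fold change was −0.07 (SE 0.23, 95% interval −0.60 to 0.46, edgeR adjusted p = 0.893). It was 0.12 without rFGF4 replicate 4 and 0.00 without PBS replicate 1, so the sign of the estimate rested on single libraries.

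The epithelial cadherins did not pass the test. CDH1, or E-cadherin, the main cadherin of simple and stratified epithelia, stood at 227, 239, 163 and 208 CPM in rFGF4 replicates 1 to 4, against 219, 295, 199 and 282 CPM in PBS replicates 1 to 4. PBS replicates 2 and 4 were higher than all other libraries, and rFGF4 replicate 3 was the lowest. Its log2 fold change of −0.25 had an SE of 0.16 and a 95% interval of −0.61 to 0.11 (edgeR adjusted p = 0.380). Left-out libraries moved the estimate between −0.34 (without PBS replicate 3) and −0.15 (without rFGF4 replicate 3), and kept its sign.

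CDH3, or P-cadherin, is the cadherin of the basal layer and hair follicle. It stood at 438, 375, 355 and 366 CPM in rFGF4 replicates 1 to 4, against 422, 415, 402 and 431 CPM in PBS replicates 1 to 4. rFGF4 replicate 1 was the highest library of all, and the other rFGF4 libraries lay below every PBS library. The log2 fold change was −0.12 (SE 0.07, 95% interval −0.29 to 0.04, edgeR adjusted p = 0.346), and it was −0.19 (adjusted p = 0.0918) without rFGF4 replicate 1. CDH3 and CDH1 lie beside each other on chromosome 16, with CDH3 from 68636189 to 68700292 and CDH1 from 68737292 to 68835537, both on the plus strand. The 36999 bases between them hold 0 other genes of the table. CDH3 FPKM was 1.94, 1.58, 2.19 and 1.77 times CDH1 FPKM in rFGF4 replicates 1 to 4, and 1.93, 1.41, 2.03 and 1.53 times in PBS replicates 1 to 4. P-cadherin RNA was thus the more abundant per length in all 8 libraries, and the ratios overlapped between the groups.

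CTNNB1 encodes beta-catenin, which sits on the cadherin tail and also acts in the nucleus in Wnt signalling. It stood at 193, 201, 184 and 172 CPM in rFGF4 replicates 1 to 4, against 201, 210, 210 and 212 CPM in PBS replicates 1 to 4. The groups met at rFGF4 replicate 2 and PBS replicate 1, and rFGF4 replicate 4 was lowest. The log2 fold change was −0.15 (SE 0.06, 95% interval −0.29 to −0.01, edgeR adjusted p = 0.162), which did not pass. CTNNA1, alpha-catenin, the actin-binding partner of beta-catenin, stood at 412, 423, 422 and 324 CPM in rFGF4 replicates 1 to 4, against 433, 476, 406 and 407 CPM in PBS replicates 1 to 4. rFGF4 replicate 4 stood apart from the rest of its group, which overlapped the PBS libraries. The log2 fold change was −0.12 (SE 0.10, 95% interval −0.35 to 0.10, edgeR adjusted p = 0.493), and it was −0.04 without rFGF4 replicate 4 and −0.08 without PBS replicate 2.

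CTNND1 encodes catenin delta 1, or p120-catenin, which binds the juxtamembrane part of cadherins and keeps them at the cell surface. It stood at 270, 612, 589 and 547 CPM in rFGF4 replicates 1 to 4, against 315, 729, 353 and 673 CPM in PBS replicates 1 to 4. The libraries fell into a low set (rFGF4 replicate 1 and PBS replicates 1 and 3) and a high set, and both groups had members in each. The highest library was 2.27 times the lowest among rFGF4 libraries and 2.32 times among PBS libraries. Its log2 fold change of −0.04 had an SE of 0.34 and a 95% interval of −0.82 to 0.75 (edgeR adjusted p = 0.966). It became 0.17 without rFGF4 replicate 1, 0.17 without PBS replicate 2 and 0.12 without PBS replicate 4. The genes that overlap CTNND1 in the table did not exceed 0.192 FPKM in any library, and the table lists 38 transcripts for it.

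**Figure D3:**
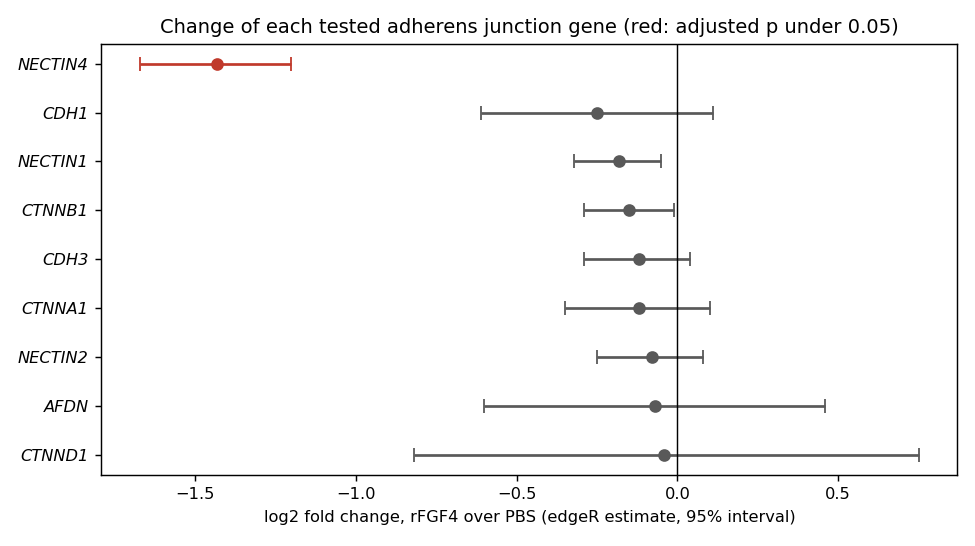
log2 fold change, rFGF4 over PBS (x axis), of the 9 tested genes with 95% intervals from edgeR; red marks an adjusted p under 0.05. NECTIN4, at −1.43, lies apart from the other 8, which lie between −0.25 and −0.04, and the intervals of CTNND1 and AFDN are the widest.

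The spread between libraries of a group differed greatly among these genes. The pooled within-group SD of log2 CPM was 0.591 for CTNND1, 0.390 for AFDN and 0.260 for CDH1, with a median of 0.153 over all tested genes. It was 0.0720 for CTNNB1, 0.0725 for NECTIN1, 0.0939 for NECTIN2, 0.0996 for CDH3, 0.121 for NECTIN4 and 0.151 for CTNNA1. CTNND1 thus varied more than 95.5% of tested genes, and CTNNB1 more than 9.41% of them. In simulated counts for this comparison over 11536 genes, the test recovered 2% of genes changed 1.25-fold, 30% of those changed 1.5-fold, 82% of those changed 2-fold and 94% of those changed 4-fold. The simulation changed 50 genes at each fold, picked at random, where 1157 genes were called in the data. Its rates may thus be too low here, and they do not describe single genes. ARF6 and SRC, described below, were called at log2 fold changes of 0.28 and 0.22, though not under all settings. Differences of the size estimated for the genes that did not pass may still have been missed with 4 libraries a group.

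Per length, in FPKM over all 8 libraries, the genes ordered as NECTIN1 (59.6), CDH3 (54.7), CTNND1 (48.1), CTNNA1 (38.8), CDH1 (31.1), CTNNB1 (14.0), NECTIN2 (11.4), NECTIN4 (2.86), AFDN (2.14) and NECTIN3 (0.270). The ranges of each neighbouring pair among the first 5 overlapped. CTNNB1 was above NECTIN2 within each of the 8 libraries, although their ranges overlapped. CDH1 was above CTNNB1, NECTIN2 above NECTIN4 and AFDN above NECTIN3 in all 8 libraries without overlap of the ranges. NECTIN4 was above AFDN in 4 of 4 PBS libraries but in 1 of 4 rFGF4 libraries. NECTIN4 averaged 1.53 ± 0.106 FPKM in rFGF4 libraries and 4.2 ± 0.345 FPKM in PBS libraries (SD, n = 4 each), against 2.08 ± 0.710 and 2.20 ± 0.342 FPKM for AFDN in rFGF4 and PBS libraries.

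**Figure D4:**
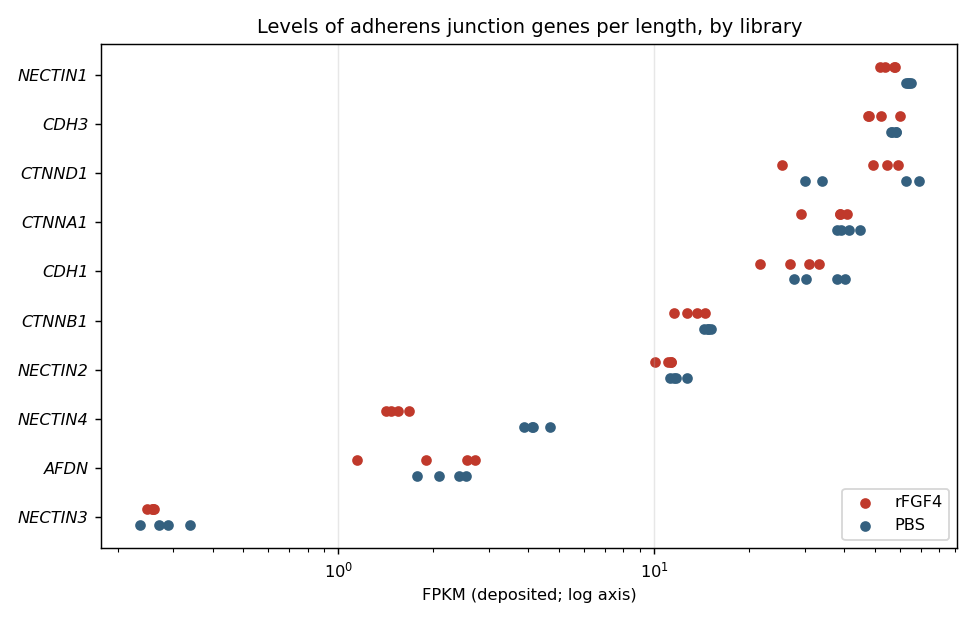
Level of each gene in FPKM (log axis) in every library, rFGF4 above PBS in each row, ordered by the mean over 8 libraries. The genes run from NECTIN1 at 59.6 to NECTIN3 at 0.270 FPKM, and the rFGF4 and PBS points separate widely in the row of NECTIN4.

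The table places NECTIN1 on chromosome 11 from 119623408 to 119728553 (minus strand) and NECTIN2 on chromosome 19 from 44846175 to 44889223 (plus strand). NECTIN3 lies on chromosome 3 from 111070071 to 111193539, and AFDN on chromosome 6 from 167826922 to 167970308, both on the plus strand. The catenin genes are all on the plus strand, CTNNA1 on chromosome 5 from 138610967 to 138935034, CTNNB1 on chromosome 3 from 41194741 to 41240443 and CTNND1 on chromosome 11 from 57753243 to 57819546. Values are per gene, so exons and transcripts of a gene are not told apart. Annotated genes that overlap any of the 10 did not exceed 0.688 FPKM in any library.

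The table's own annotation gives 9 of the 10 genes an adherens junction term, with NECTIN2 the exception. It gives a virus receptor term to 3 of them, NECTIN1, NECTIN2 and NECTIN4. Of 158 genes that the table annotates to adherens junctions, 106 were tested, and 4 were called higher and 6 lower, or 9.43% in all, near the background of 5.49% higher and 4.54% lower over all tested genes. Those higher were CDC42EP1, FAM129B, KIFC3 and KRT18, and those lower were AJUBA, CDH8, DSC2, NECTIN4, TNKS1BP1 and TRPV4. At an unadjusted p under 0.05, 19 of the 106 were lower and 9 higher, against 11.6% and 13.5% of all tested genes. DESeq2 called 11 lower and 5 higher, against 7.35% and 8.53%. With limma 8 were lower and 4 higher, against 5.05% and 4.86%. The median log2 fold change of the 106 was −0.06, and 63 estimates were below 0, where 49.7% of all tested genes were. These names, other than NECTIN4, AJUBA and KRT18, were chosen after their values were seen.

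Genes that work with these proteins were examined in lists by role. Counts called by edgeR were read against the same 5.49% called higher and 4.54% called lower over all tested genes. For counts at an unadjusted p under 0.05 in these lists, the shares were 13.5% higher and 11.6% lower. They were 8.53% and 7.35% for DESeq2, and 4.86% and 5.05% for limma. Of 21 actin linkers and scaffolds of the junction 17 were tested, and 1 rose and 1 fell, with a median log2 fold change of −0.05. At an unadjusted p under 0.05 and by DESeq2, 1 was higher and 2 were lower, and by limma 1 was higher and 1 lower. ACTN1, an actin crosslinker, rose to 436 ± 33.1 CPM in rFGF4 libraries, against 300 ± 6.55 CPM in PBS libraries (SD, n = 4 each). Its log2 fold change was 0.54, with an SE of 0.06 and an edgeR adjusted p of 0.00179. AJUBA, a LIM protein that binds alpha-catenin, fell to 178 ± 6.01 CPM in rFGF4 libraries, against 252 ± 20.8 CPM in PBS libraries, which is −0.50 on the log2 scale (SE 0.07, adjusted p = 0.00335 by edgeR). VCL, or vinculin, recruited to alpha-catenin under tension, had 0.16 (SE 0.07, adjusted p = 0.214), and 0.23 (adjusted p = 0.0217) without rFGF4 replicate 4.

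Of 8 nectin-like molecules and their immune receptors, only PVR was tested. PVR stood at 85.2, 69.3, 133 and 121 CPM in rFGF4 replicates 1 to 4, against 58.5, 51.9, 93.4 and 60.5 CPM in PBS replicates 1 to 4. The groups overlapped, and its difference of 0.63 on the log2 scale did not pass (SE 0.25, adjusted p = 0.158 by edgeR). Its unadjusted edgeR p was 0.0336, and neither DESeq2 nor limma called it. Of 6 chosen cadherins of other tissues (CDH2, CDH4, CDH5, CDH11, CDH13 and CDH15) 3 were tested and 0 called by edgeR. At an unadjusted p under 0.05 and with DESeq2, 1 was higher (CDH5, the endothelial cadherin), and with limma 0 were. CDH8, which is not in this list, was called lower by edgeR, as given above. Of 8 other catenin family genes 6 were tested and 0 called by edgeR. At an unadjusted p under 0.05 and with DESeq2, 1 was higher (CTNNBIP1, an inhibitor of beta-catenin), and with limma 0 were. CDH5 and CTNNBIP1, and RAPGEF1 and TWIST2 below, were named after their values were seen. JUP, or plakoglobin, is another of the catenin family genes and was named by rule. It takes the place of beta-catenin on cadherin tails in desmosomes. JUP stood at 901 ± 130 CPM in rFGF4 libraries and 917 ± 8.34 CPM in PBS libraries. Of 12 small GTPase genes of the junction 11 were tested and 0 called by edgeR, with 1 lower at an unadjusted p under 0.05 and by DESeq2 (RAPGEF1, an activator of RAP1) and 0 by limma.

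Of 16 genes for junction turnover 15 were tested, and 2 rose. At an unadjusted p under 0.05 and by DESeq2, 2 were higher and 0 lower, and by limma 1 was higher and 0 lower. ARF6, a GTPase of cadherin endocytosis, stood 0.28 higher on the log2 scale (SE 0.07, adjusted p = 0.0336 by edgeR), and SRC, a tyrosine kinase that acts on catenins, had 0.22 (SE 0.06, adjusted p = 0.0390). Their calls were lost under 8 and 14 of 18 other settings. Of 16 beta-catenin partners and targets 10 were tested, and 1 rose. This was ZNRF3, a ubiquitin ligase that removes Wnt receptors, with 0.37 (SE 0.09, edgeR adjusted p = 0.0306), a call lost under 12 of 18 other settings. In the same list 3 genes were higher and 0 lower at an unadjusted p under 0.05. DESeq2 called 2 higher and 0 lower, and limma called 0 in either direction.

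Regulators of CDH1 transcription were examined beside CDH1 itself. Of 11 repressors 5 were tested and 0 called by edgeR, with 1 higher (TWIST2) at an unadjusted p under 0.05, by DESeq2 and by limma. For SNAI2 the difference was 0.19 on the log2 scale (SE 0.30, adjusted p = 0.757 by edgeR), with 0.40 without rFGF4 replicate 2 and 0.00 without PBS replicate 3, and ZEB1 did not exceed 0.472 CPM in any library. Of 16 factors that keep up epithelial gene expression 14 were tested, with a median log2 fold change of −0.27. By edgeR 3 fell, where 4.54% of all tested genes did. At an unadjusted p under 0.05, 6 were lower and 1 higher, against 11.6% and 13.5% of all tested genes. DESeq2 and limma each called 5 lower and 0 higher. The shares lower over all tested genes were 7.35% for DESeq2 and 5.05% for limma. The Grainyhead factor GRHL3 stood at 4.01 ± 0.35 CPM in rFGF4 libraries and 7.73 ± 1.38 CPM in PBS libraries, or −0.95 on the log2 scale (SE 0.15, adjusted p = 0.00623 by edgeR). GRHL3 had 0.775 to 0.934 FPKM in rFGF4 libraries and 1.27 to 1.89 FPKM in PBS libraries. It thus passed the filter only through the PBS libraries, which bears on the count of 3. With no filter its edgeR adjusted p was 0.0141. The ETS factor ELF3 stood at 58.7 ± 6.68 CPM in rFGF4 libraries and 228 ± 22.1 CPM in PBS libraries, or −1.96 on the log2 scale (SE 0.10, adjusted p = 0.000115 by edgeR). KLF5, a Krüppel-like factor of epithelia, had −0.31 (SE 0.08, adjusted p = 0.0414), a call lost under 12 of 18 other settings. GRHL2 stood at 32.3, 37.0, 79.7 and 22.5 CPM in rFGF4 replicates 1 to 4, against 37.3, 34.1, 37.8 and 34.9 CPM in PBS replicates 1 to 4, and did not pass (adjusted p = 0.711). Its log2 fold change was 0.25, and −0.23 without rFGF4 replicate 3.

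**Figure D5:**
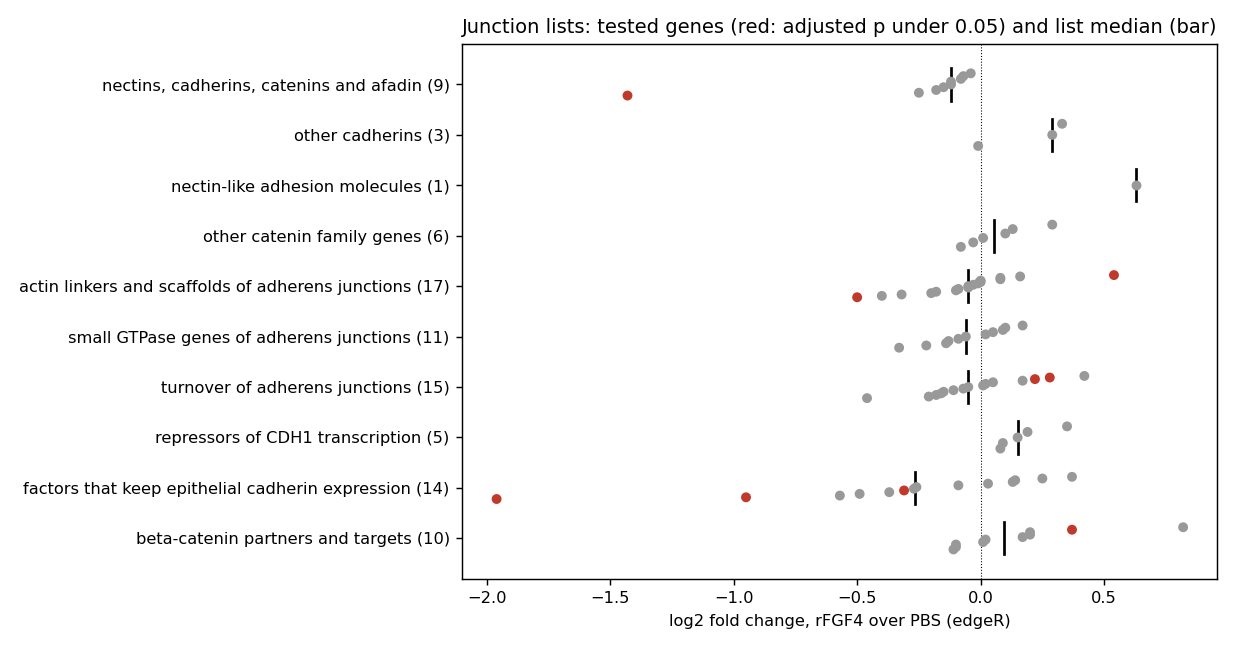
log2 fold change, rFGF4 over PBS (x axis), of every tested gene in the nectin, cadherin, catenin and afadin group and in each list, with the number tested in brackets; red marks an edgeR adjusted p under 0.05 and bars are list medians. The median of the first row is −0.12, and that of the factors keeping up epithelial expression is −0.27.

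The genes whose profile over the 8 libraries was most like that of NECTIN4 were FBXO32, TNFSF10, TENT5B, EPHB3 and PRODH. Likeness was the root mean square difference of log2 CPM after centring each gene on its own mean, and it was 0.108, 0.119, 0.121, 0.141 and 0.151 for these, among 11536 tested genes. FBXO32 encodes a ubiquitin ligase subunit, TNFSF10 the death ligand TRAIL, EPHB3 an ephrin receptor and PRODH proline dehydrogenase. Their log2 fold changes were −1.35, −1.49, −1.43, −1.19 and −1.48. Values near that of NECTIN4 follow from the way these genes were picked, over the same 8 libraries. The profiles nearest to CDH1 were those of TXNP6, NOXA1, GPRC5D-AS1, URGCP and DNLZ, at 0.0988, 0.119, 0.122, 0.123 and 0.128, and their edgeR adjusted p-values were 0.677, 0.625, 0.50, 0.148 and 0.468.

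Most tested markers of cell type were not called. By edgeR, 2 of 9 basal keratinocyte markers and 1 of 5 tested differentiated ones were lower, where 4.54% of all tested genes were. Of 5 simple epithelial markers 1 was higher, where 5.49% of all tested genes were. None of the tested endothelial and leukocyte markers was called. The summed FPKM of the 9 basal keratinocyte markers was 2140 to 2250 in rFGF4 libraries and 2330 to 2660 in PBS libraries. KRT15 and LAMB3 among them were called lower (−0.56 and −0.28 on the log2 scale). KRT5 and KRT14, with mean FPKM of 910 and 1030, weighed most in that sum. They had −0.22 and −0.17 and were not called. ITGB4, COL17A1, ITGA6, DST and TP63 went the other way without a call, at 0.20, 0.10, 0.09, 0.09 and 0.03. The median of the 9 was 0.03, with 4 estimates below 0. The 5 simple epithelial markers summed to 1060 to 1250 in rFGF4 libraries and 1140 to 1260 in PBS libraries, with KRT18 called higher (0.74 on the log2 scale). KRT19, the most abundant of them, went the other way at −0.32 without a call (edgeR adjusted p = 0.0715). It stood at 535 to 669 FPKM in rFGF4 libraries and 701 to 788 FPKM in PBS libraries. KRT8, KRT7 and EPCAM had 0.16, 0.11 and 0.05 and were not called. The 10 differentiated keratinocyte markers summed to 25.0 to 28.3 in rFGF4 libraries and 28.3 to 30.9 in PBS libraries, with TGM1 called lower. TGM1 was near the filter, at 0.739 to 1.05 FPKM in rFGF4 libraries and 1.16 to 1.49 FPKM in PBS libraries. KRT10, IVL, FLG and SPRR1B had −0.00, −0.26, 0.22 and 0.20 on the log2 scale and were not called. The 8 fibroblast markers summed to 0.411 to 0.517 in rFGF4 libraries and 0.776 to 0.864 in PBS libraries, without overlap. All 8 were near the floor, and no fibroblast marker exceeded 0.407 FPKM in any library. The 7 endothelial markers summed to 4.14 to 5.84 in rFGF4 libraries and 3.26 to 4.48 in PBS libraries, and the 8 leukocyte markers to 8.16 to 11 in rFGF4 libraries and 7.72 to 8.86 in PBS libraries. Of endothelial markers below the filter, VWF averaged 16.2 CPM in rFGF4 libraries and 8.46 CPM in PBS libraries, and PECAM1 6.29 and 2.78 CPM. In the same order, CLDN5 averaged 0.477 and 0.448 CPM, KDR 0.375 and 0.317 CPM, and TEK 0.198 and 0.104 CPM. The tested endothelial markers CDH5 and EGFL7 had edgeR adjusted p-values of 0.0861 and 0.792. The part of these markers in the difference in NECTIN4 was not tested.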

How the data were processed

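Per the labels, HISAT2 2.0 and StringTie 1.3.0 were named in the submitters' processing notes with no role, while build, annotation and strand setting are not stated in any source used here. The authors deposited FPKM per gene and library, per the file headers; where a 0 would stand the table has 0.0001, which was read as 0. The authors also deposited whole-number counts, per the file headers; these piled up at 4 (9781 entries, against 3485 at 3 and 1977 at 5), so they may be estimates worth about 4 counts per fragment. Columns were matched to samples by name. Y-linked genes, XIST and TSIX were left out (521 of 58825 genes). Genes of mean FPKM at least 1 were tested with edgeR 4.0.16 (R 4.3.3; TMM, glmQLFit, glmQLFTest, two-sided) between the groups, with Benjamini-Hochberg adjusted p-values called under 0.05. SEs are the sizes implied by the test statistic. Alternatives were DESeq2 1.42.0, limma 3.58.1 on log2(FPKM + 1) and log2(FPKM + 0.1), other scalings and filters, counts divided by 4, a replicate block and each library left out. Within-group SDs and profiles used log2(CPM + 0.5). Libraries of a group differed by more than sampling noise (chi-square per degree of freedom 18.5 to 51.5 over 12 pairs, on counts divided by 4). The test was checked on simulated counts.

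The members and lists were chosen with earlier results of these data known. Genes were named by rule: all members; list members past the threshold, up to 6 a list by smallest p; SNAI2, ZEB1, GRHL2, JUP, VCL and PVR in any case; the 5 nearest profiles of NECTIN4 and CDH1; and cell type markers. CDH5, CTNNBIP1, RAPGEF1, TWIST2 and the genes annotated to adherens junctions are not covered by it and were picked with their values in view.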

Additional observations from a re-analysis of the deposited data

Results flagged for a closer look

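In 48 groups of 4 libraries (24 named genes in 2 groups each), 4 had a library far from the others by Dixon's gap-to-range criterion, and chance marks about 5% of groups. CTNNA1 stood at 324 CPM in rFGF4 replicate 4, where replicates 1 to 3 had 412 to 423 CPM. GRHL3 stood at 4.54 CPM in rFGF4 replicate 3, with the others at 3.82 to 3.87 CPM. SNAI2 stood at 31.7 CPM in rFGF4 replicate 2, with the others at 67.7 to 71.2 CPM. ARF6 stood at 130 CPM in PBS replicate 1, with the others at 142 to 144 CPM.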

How the results depend on the processing

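NECTIN4 was called lower under all 18 other settings, with log2 fold changes of −1.50 to −1.04, the smallest change with limma on log2(FPKM + 1). The number of junction members called lower was 2 (NECTIN1 and NECTIN4) with library totals alone, DESeq2 and limma on log2(FPKM + 1), and 1 under the other settings; the number called higher was 0 throughout. DESeq2 called 846 genes lower and 982 higher of all tested genes, against 524 and 633. With 1 library left out, 275 to 547 were called lower and 326 to 622 higher, the fewest without PBS replicate 2. ACTN1, AJUBA, GRHL3 and ELF3 kept their calls under all 18 settings. The mean NECTIN4 share of the nectins stayed at 2.17% to 2.33% in rFGF4 libraries and 5.05% to 5.35% in PBS libraries with a library left out, and the mean ratio of CDH3 to CDH1 at 1.76 to 1.97 in rFGF4 libraries and 1.62 to 1.83 in PBS libraries.

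Deviations of libraries of the same number correlated at 0.124, 0.0609, −0.0211 and 0.266 for replicates 1 to 4. Replicates 1 and 4 correlated best with their own number in both groups, and replicate 3 in neither. PBS replicate 2 correlated best with rFGF4 replicate 2, but rFGF4 replicate 2 correlated best with PBS replicate 3 (0.0783). The numbers were therefore not taken to pair the libraries. With the replicate block, 452 genes were called lower and 561 higher, NECTIN4 had an adjusted p of 0.0103, and PVR passed (0.62, adjusted p = 0.0340). The calls of ARF6, KLF5, SRC and ZNRF3 were lost with the block (adjusted p 0.0510, 0.0663, 0.0657 and 0.0509). Depth was least for NECTIN3, at 143 to 197 deposited counts a library, which may stand for fewer fragments.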
